A study of Homo sapiens with 9 samples.

Results

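The genes described here are the tropomyosin family, TPM1, TPM2, TPM3 and TPM4, and the muscle-type contractile genes DES, TNNC1 and MYBPH. They make up 7 of the 61806 gene identifiers in a table of read counts from HCT116 cells. HCT116 is a human cell line established from a colorectal carcinoma. The cells were transfected by Lipofectamine RNAiMax with siRNA 1 against EXOSC10-AS1, siRNA 2 against EXOSC10-AS1, or a control siRNA. EXOSC10-AS1 is a long non-coding RNA gene antisense to EXOSC10. Each of the 3 groups held 3 libraries of total RNA, all of them carried the batch entry of day 3, and all came from the same line in the same medium. The labels used here give neither the siRNA sequences nor the doses. They do not state that replicates were transfected separately, so p-values measure only the spread between these libraries, which may be technical.

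TPM4, DES, TNNC1 and MYBPH were picked from these same counts, TPM4 because it was higher with both siRNAs and the others because they changed differently with each siRNA. Their values are therefore a description without a test. TPM1, TPM2 and TPM3 complete the tropomyosin family and were tested among all genes. All 7 genes passed the filter on low counts, which kept 20868 genes.

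Tropomyosins are coiled-coil proteins that polymerise head to tail along actin filaments and govern which myosins, severing factors and crosslinkers can reach the filament. Each tropomyosin gene gives several isoforms by alternative promoters and splicing, some typical of muscle and others found in nearly all cells, epithelial cells included. Desmin (DES), cardiac and slow skeletal troponin C (TNNC1) and myosin binding protein H (MYBPH) are parts of the muscle contractile apparatus and its anchorage. The counts are per gene, so the isoforms were not analysed here.

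The libraries held 56.8 to 66.5 M counts. EXOSC10-AS1 itself had few reads. It had 4, 0 and 0 counts in the siRNA 1 libraries and 5, 13 and 0 in the siRNA 2 libraries, against 26, 4 and 14 in the control libraries. Its log2 fold change was -3.40 ± 1.45 (SE) with siRNA 1 and -1.29 ± 1.24 with siRNA 2, and neither passed the threshold at this depth (adjusted p = 0.191 and 0.549, edgeR quasi-likelihood test, Benjamini-Hochberg adjustment). The first siRNA 1 library stood apart from the rest of its group on the first principal component, at -70.4 against -24.3 and -28.8. Its difference from control was correlated with gene GC content (r = 0.338 across 20200 genes, which are not independent replicates). The siRNA 2 libraries of replicates 2 and 3 also differed from replicate 1, at 63.5 and 59.1 against 19.2, and had GC correlations of -0.281 and -0.294.

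The cells carried abundant epithelial transcripts and little from muscle regulators. The 10 colorectal epithelial markers, led by the simple keratin genes KRT8 and KRT19, summed to 4056 to 4787 CPM (a gene's count scaled to a common library size) in siRNA 1 libraries, 3576 to 4233 CPM in siRNA 2 libraries and 4833 to 4935 CPM in control libraries. The members differed in direction. With siRNA 1 the median log2 fold change of the 8 tested was 0.32, and CDH1, the E-cadherin gene, rose by 0.30 (edgeR adjusted p = 0.0189). With siRNA 2 the median was -0.25, KRT8, KRT18 and KRT19 fell by 0.40, 0.30 and 0.38, and KRT20 rose by 2.04 (edgeR adjusted p = 0.0185, 0.0348, 0.0206 and 0.00173). KRT20 was low, at 1.83 ± 0.40 CPM with siRNA 2 and 0.44 ± 0.04 CPM in control. CDX1, an intestinal transcription factor on that list, was at 0 in all 9 libraries. VIL1 and LGR5, also on the list, had at most 5 and 21 counts in a library, whereas CDX2 had 624 to 1007. Of 12 skeletal muscle markers, 6 were at 0 in all 9 libraries, among them the myogenic factors MYOD1, MYF5 and MYF6. The summed level of the list was 0.608 to 0.871 CPM with siRNA 1, 0.504 to 1.33 CPM with siRNA 2 and 0.951 to 1.24 CPM in control. Smooth muscle markers summed to 12.5 to 15.1 CPM with siRNA 1 and 11.8 to 13.3 CPM with siRNA 2, above the 9.39 to 11.3 CPM of control, with MYOCD and ACTG2 at 0 in all 9 libraries. Most of that difference was ACTA2 alone, which averaged 7.81 CPM with siRNA 1, 6.59 CPM with siRNA 2 and 4.41 CPM in control. The median log2 fold change of the 5 tested smooth muscle markers was 0.03 with siRNA 1 and 0.11 with siRNA 2. Cardiac muscle markers summed to 14.5 to 18.8 CPM, 13.7 to 17.1 CPM and 16.5 to 16.7 CPM in siRNA 1, siRNA 2 and control libraries, most of it TNNI3. The 10 fibroblast markers summed to 46.9 to 52.4 CPM with siRNA 1, 36.2 to 40.3 CPM with siRNA 2 and 59.5 to 61.4 CPM in control, nearly all of it COL1A1. The part of these differences in the results below was not tested. In bulk RNA, fewer cells of a kind and less RNA per cell cannot be told apart.

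TPM4 and MYBPH had the largest shift upward among the 7 genes with siRNA 1 and with siRNA 2, in that order, and their annotated upstream sequences are shown for that reason. RefSeq promoter windows on GRCh38.p14 were found for 5 of the 7 genes, as 9 windows of 250 bases before to 50 bases after an annotated start. The bases before the start are printed 5′ to 3′ on the gene's strand. Capitals mark a CArG box, the element bound by serum response factor, and the letters TATAA, both searched on either strand. The motifs do not overlap each other.
TPM4, first window, plus strand, chr19:16067288-16067537: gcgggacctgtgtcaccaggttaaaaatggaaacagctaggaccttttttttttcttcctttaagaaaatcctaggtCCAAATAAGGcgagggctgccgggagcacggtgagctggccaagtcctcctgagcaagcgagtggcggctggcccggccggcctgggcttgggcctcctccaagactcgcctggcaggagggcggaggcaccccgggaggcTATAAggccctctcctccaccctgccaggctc
MYBPH, minus strand, chr1:203175827-203176076: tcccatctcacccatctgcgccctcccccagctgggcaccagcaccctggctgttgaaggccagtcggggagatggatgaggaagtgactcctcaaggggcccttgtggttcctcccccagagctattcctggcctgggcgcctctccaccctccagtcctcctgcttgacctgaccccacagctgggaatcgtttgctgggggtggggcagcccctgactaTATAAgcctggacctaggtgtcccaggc
The TPM4 sequence holds a CArG box that begins 173 bases before the start and TATAA 32 bases before it. The MYBPH sequence holds TATAA 28 bases before the start and no CArG box. The other 8 windows of these genes, MYBPH's included, had no CArG box, against 1.29% of 35116 promoter windows of all genes that hold one. Windows 2 and 3 of TPM4 itself, which are not printed, held neither a CArG box nor TATAA. Since the counts are per gene, they do not show which TPM4 start was used. TATAA occurred in 20.4% of all windows, and CANNTG, an E-box searched on either strand, in 68.7%. These matches describe the letters only.

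TPM4 encodes a tropomyosin that in most non-muscle cells is made mainly as a short isoform on stress fibres and the cell cortex. It stood at 397, 461 and 464 CPM in the siRNA 1 libraries and at 427, 416 and 429 CPM in the siRNA 2 libraries, against 240.0, 233 and 236 CPM in the control libraries. All 6 libraries of the siRNA groups lay above all 3 control libraries, and the siRNA groups overlapped each other. The log2 fold change was 0.90 ± 0.07 for siRNA 1 against control (SE, as for all fold changes below), a fold of 1.86, and 0.84 ± 0.07 for siRNA 2 against control, a fold of 1.79. For siRNA 2 against siRNA 1 it was -0.06 ± 0.07. The comparisons with control share the same 3 control libraries. A gene of uncertain type on the opposite strand, ENSG00000279198, overlaps a TPM4 exon and had 42 to 132 counts per library, against 13227 to 30819 for TPM4.

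TPM1 encodes the alpha tropomyosin of striated muscle and several isoforms of non-muscle cells, and it rose with siRNA 1. It stood at 33.1, 36.2 and 36.0 CPM in siRNA 1 libraries and 23.9, 22.7 and 23.2 CPM in siRNA 2 libraries, against 26.6, 21.7 and 25.9 CPM in control libraries. The siRNA 1 libraries all lay above the rest, whereas the siRNA 2 and control libraries overlapped. The log2 fold change of siRNA 1 against control was 0.50 ± 0.09 (adjusted p = 0.0124 by edgeR's quasi-likelihood test over all genes). For siRNA 2 against control it was -0.09 ± 0.09 (edgeR adjusted p = 0.587). The siRNAs differed from each other directly, with a log2 fold change of -0.59 ± 0.09 for siRNA 2 against siRNA 1 (edgeR adjusted p = 0.00265). Without control replicate 2, the lowest control, the call with siRNA 1 was lost at an edgeR adjusted p of 0.0571 and a log2 fold change of 0.42. The antisense gene TPM1-AS, whose exons overlap TPM1, had 1 to 11 counts per library.

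TPM2 encodes beta tropomyosin, which is abundant in muscle and in many cells with stress fibres, and it moved the other way. It stood at 201, 169 and 165 CPM in siRNA 1 libraries and 246, 223 and 231 CPM in siRNA 2 libraries, against 225, 219 and 224 CPM in control libraries. Every siRNA 1 library lay below every control and siRNA 2 library, and siRNA 2 overlapped control. TPM2 fell by 0.32 on the log2 scale with siRNA 1, with an SE of 0.08 (edgeR adjusted p = 0.0442), and its change with siRNA 2 was 0.07 ± 0.08 (edgeR adjusted p = 0.652). For siRNA 2 against siRNA 1 the log2 fold change was 0.39 ± 0.08 (edgeR adjusted p = 0.00963). The fall with siRNA 1 was close to the threshold: it was called in 9 of 19 alternative analyses and in 2 of the 9 that left out 1 library. It was lost without any control library, without siRNA 1 replicate 2 or 3, and without siRNA 2 replicate 2 or 3, with edgeR adjusted p of 0.0669 to 0.167. Without the first siRNA 1 library it was -0.41 ± 0.05 (edgeR adjusted p = 0.00134).

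TPM3 encodes the tropomyosin of slow skeletal muscle and the short isoforms found in nearly all dividing cells. It stood at 397, 481 and 475 CPM in siRNA 1 libraries and 462, 435 and 458 CPM in siRNA 2 libraries, against 487, 474 and 478 CPM in control libraries. The first siRNA 1 library was the lowest of the 9, the other siRNA 1 libraries lay within the range of control, and the siRNA 2 libraries all lay just under it. The log2 fold changes were -0.09 ± 0.08 for each siRNA against control (edgeR adjusted p = 0.531 for siRNA 1 and 0.503 for siRNA 2) and 0.00 ± 0.08 between the siRNAs (edgeR adjusted p = 0.988). Without the first siRNA 1 library the log2 fold change of siRNA 1 against control was 0.00 ± 0.04. With the GC correction TPM3 was lower with siRNA 2, at -0.20 (edgeR adjusted p = 0.0432), and TPM2 was higher, at 0.14 (edgeR adjusted p = 0.0328).

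**Figure D1:**
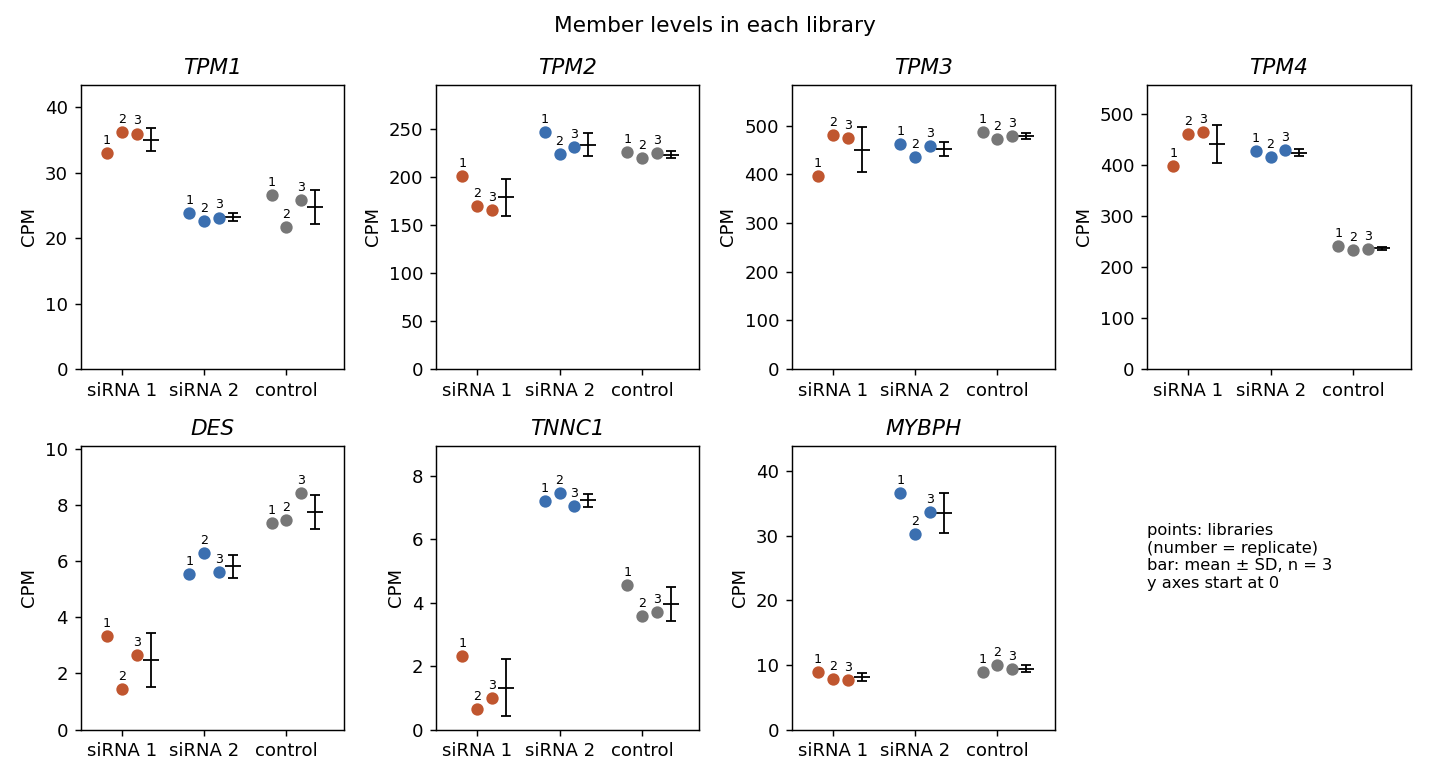
Level of each of the 7 genes in CPM in every library, with siRNA 1, siRNA 2 and control from left to right, points numbered by replicate, and bars for mean ± SD (n = 3). TPM4 is above all control libraries in all 6 siRNA libraries, while TPM1, TPM2, DES, TNNC1 and MYBPH show a different position with siRNA 1 than with siRNA 2.

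Among the 7 genes, 5 passed the adjusted p threshold of 0.05 with siRNA 1, where 7.08% of all genes tested did. Of these 5, TPM1 and TPM4 were higher, as were 3.72% of all genes, and TPM2, DES and TNNC1 were lower, as were 3.36%. With siRNA 2, TPM4 and MYBPH passed, both higher, where 13.8% of all genes passed, 6.15% higher and 7.61% lower. Between siRNA 2 and siRNA 1, 5 passed, where 22.4% of all genes did. TPM2, DES, TNNC1 and MYBPH were higher with siRNA 2, as were 10.1% of all genes, and TPM1 was lower, as were 12.3%. The average of both siRNAs passed for TPM4 and MYBPH, higher, and DES, lower, where 7.37% of all genes passed, 3.45% higher and 3.92% lower. Libraries of the compared groups did not overlap for 6 of the 7 genes with siRNA 1, 5 with siRNA 2 and 5 between the siRNAs, against 34.7%, 39.9% and 38.6% of all genes. Since 4 of the 7 were chosen on these comparisons, nothing is read from these counts. Averaged over both siRNAs, TPM1 was at 0.21 ± 0.08, TPM2 at -0.13 ± 0.07 and TPM3 at -0.09 ± 0.07 on the log2 scale, and none of them passed (edgeR adjusted p = 0.172, 0.330 and 0.486).

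**Figure D2:**
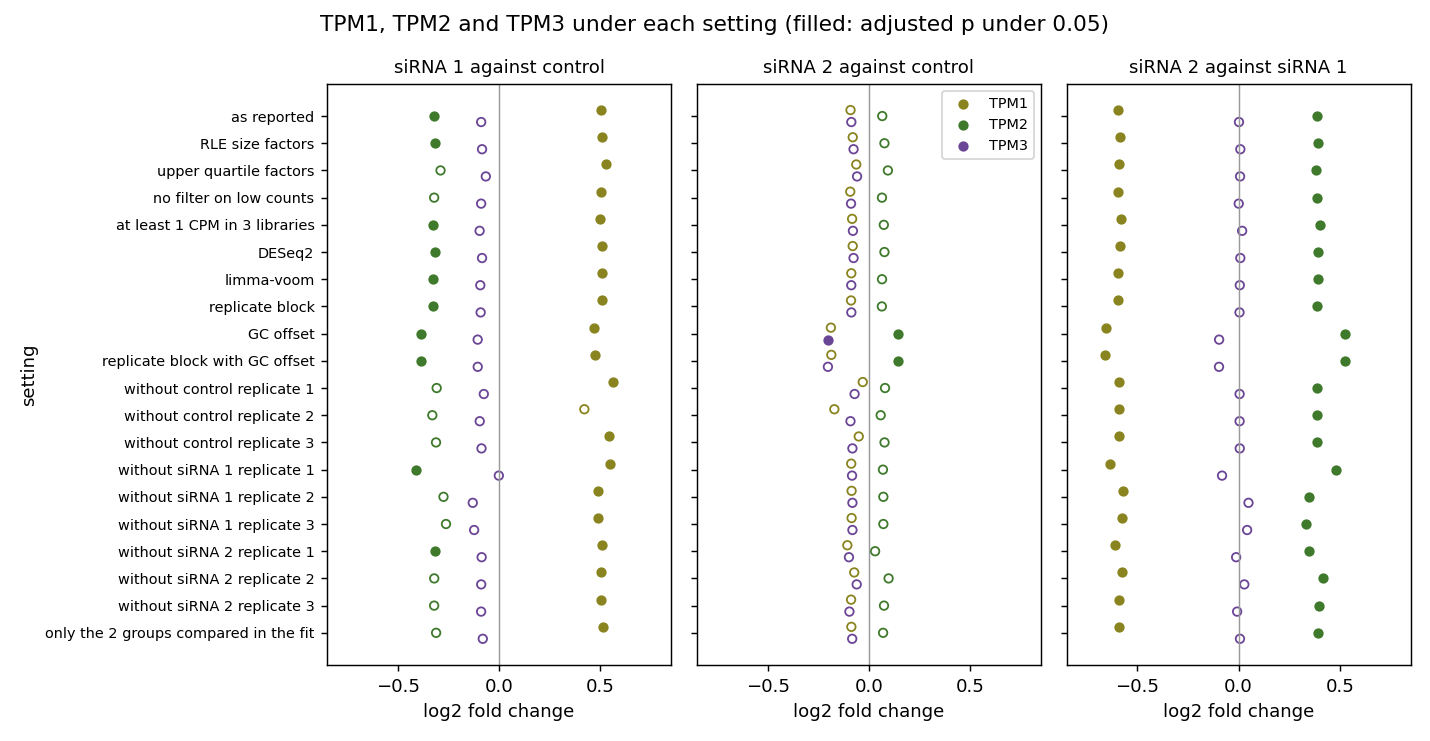
Log2 fold change of TPM1, TPM2 and TPM3 (x axis) in each comparison under the reported analysis and each alternative (y axis), filled where the adjusted p was under 0.05. TPM1 and TPM2 are filled in all 19 alternatives for siRNA 2 against siRNA 1, whereas TPM2 is filled in 9 of 19 for siRNA 1 against control.

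The tropomyosin transcripts can be set beside each other only per length, so levels were divided by the length of the longest annotated transcript (CPM per kilobase). On that scale the 4 tropomyosins summed to 375 ± 11.8 with siRNA 1 and 402 ± 12.6 with siRNA 2, against 342 ± 5.4 CPM per kilobase in control (SD, n = 3). TPM4 made up 35.4%, 38.7% and 39.2% of that sum in siRNA 1 libraries and 33.2%, 34.4% and 34.2% in siRNA 2 libraries, against 22.3%, 22.3% and 22.1% in control libraries. The share of TPM2 was 30.2% ± 4.32 with siRNA 1 and 36.8% ± 0.81 with siRNA 2, against 41.2% ± 0.15 in control. TPM3 held 29.7% ± 2.19, 27.8% ± 0.24 and 34.7% ± 0.15 in siRNA 1, siRNA 2 and control libraries. TPM1 was the minor member, at 2.36% ± 0.05 with siRNA 1, 1.46% ± 0.01 with siRNA 2 and 1.83% ± 0.17 in control. The larger TPM4 share follows from the TPM4 level by which the gene was chosen.

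Shares depend on the length chosen, because these genes give transcripts of very different lengths. With the median length of the coding transcripts instead, TPM4 held 33.6% with siRNA 1 and 31.1% with siRNA 2, against 19.8% in control. TPM3 then held the largest share of the tropomyosins in every group, with 39.4%, 37.9% and 46.0% in siRNA 1, siRNA 2 and control. The order of the tropomyosins therefore turns with the length used. The TPM4 share was higher with either siRNA than in control on both lengths, but any set of lengths would give this. TPM4 had the largest fold of the tropomyosins with each siRNA, and it was chosen for that rise. The second length is thus no test of the share.

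**Figure D3:**
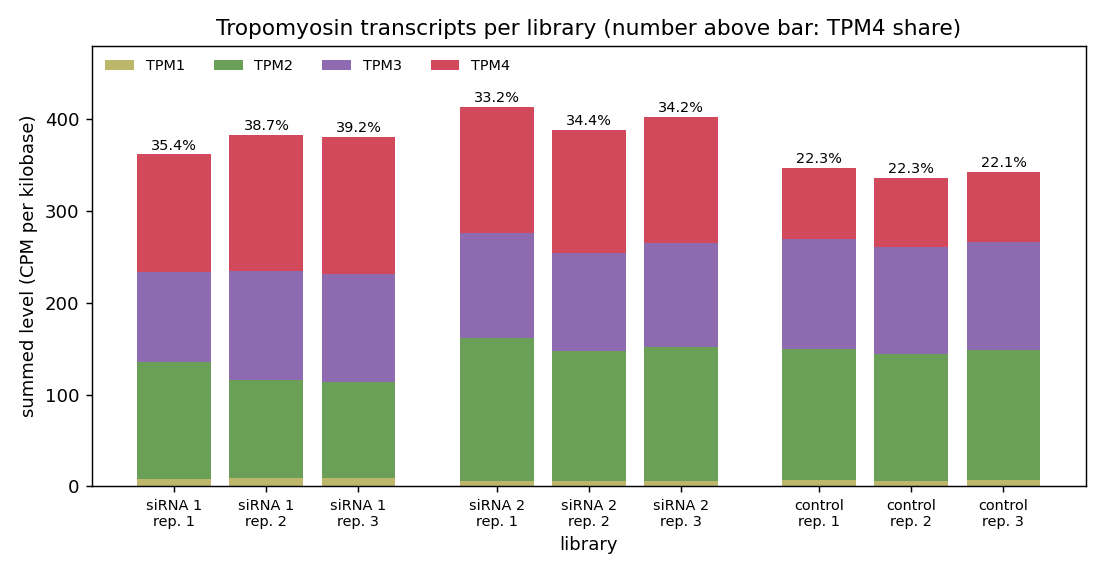
Summed level of the tropomyosin genes in CPM per kilobase of the longest transcript (y axis) in each library (x axis), stacked by gene, with the TPM4 share above each bar. The TPM4 share is 33.2% to 39.2% in the siRNA libraries and 22.1% to 22.3% in the control libraries.

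In control cells the order of levels on the longest-transcript scale was TPM2 at 141 ± 2.19, TPM3 at 119 ± 1.66 and TPM4 at 76.1 ± 1.09 CPM per kilobase. TPM1 at 6.25 ± 0.66, TNNC1 at 5.44 ± 0.74 and MYBPH at 5.23 ± 0.33 followed, with overlapping libraries between neighbours, and DES was lowest at 3.45 ± 0.26. With siRNA 1 TPM4 was first at 142 ± 12.1, its lowest library at 127.9 against 127.2 for the highest of TPM2, TPM2 and TPM3 overlapped at 113 ± 12.4 and 112 ± 11.6, and TNNC1 and DES overlapped at the bottom at 1.83 ± 1.22 and 1.10 ± 0.42 CPM per kilobase. With siRNA 2 the order was TPM2 at 148 ± 7.43, TPM4 at 136 ± 2.25, TPM3 at 112 ± 3.56, MYBPH at 18.6 ± 1.74, TNNC1 at 9.96 ± 0.28, TPM1 at 5.87 ± 0.16 and DES at 2.59 ± 0.19 CPM per kilobase, and no neighbours in that order overlapped. On the median coding length TPM3 came first in every group, at 274 with siRNA 1, 274 with siRNA 2 and 291 CPM per kilobase in control. TPM4 then came before TPM2 with siRNA 1, at 234 against 155, and with siRNA 2, at 225 against 203, but after it in control, at 125 against 194 CPM per kilobase. TPM1 then stood at 32.0 with siRNA 1, 21.2 with siRNA 2 and 22.5 CPM per kilobase in control, which put it above MYBPH and TNNC1 with siRNA 2.

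DES encodes desmin, the muscle intermediate filament protein that links Z-discs to each other and to the membrane. It stood at 3.34, 1.45 and 2.65 CPM in siRNA 1 libraries and 5.56, 6.30 and 5.60 CPM in siRNA 2 libraries, against 7.34, 7.48 and 8.43 CPM in control libraries. The 3 groups did not overlap, with siRNA 1 lowest and control highest. The log2 fold change was -1.65 ± 0.25 with siRNA 1 and -0.41 ± 0.24 with siRNA 2. With the GC correction the siRNA 2 value was -0.11, and the GC content of the longest DES transcript, 62.9%, was the highest among the 7 genes. The antisense gene ENSG00000234638, which overlaps DES exons, had 0 to 4 counts per library.

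TNNC1 encodes the calcium sensor of the troponin complex in heart and slow skeletal muscle. It stood at 2.33, 0.655 and 0.993 CPM in siRNA 1 libraries and 7.20, 7.46 and 7.06 CPM in siRNA 2 libraries, against 4.57, 3.58 and 3.72 CPM in control libraries. In counts this was 42 to 142 reads with siRNA 1 and 443 to 453 with siRNA 2, against 203 to 274 in control. The siRNA groups lay on opposite sides of control without overlap. The log2 fold change was -1.58 ± 0.37 with siRNA 1, 0.87 ± 0.35 with siRNA 2 and 2.45 ± 0.37 between siRNA 2 and siRNA 1. Without the first siRNA 1 library, the highest of its group, the values with siRNA 1 and between the siRNAs were -2.26 and 3.13.

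MYBPH encodes a myosin binding protein related to the cardiac and skeletal myosin binding proteins C, found on thick filaments. It stood at 8.87, 7.89 and 7.68 CPM in siRNA 1 libraries and 36.6, 30.3 and 33.7 CPM in siRNA 2 libraries, against 8.91, 10.1 and 9.35 CPM in control libraries. All siRNA 2 libraries lay far above the rest, and the siRNA 1 libraries lay just under control without overlap. The log2 fold change was -0.21 ± 0.11 with siRNA 1 and 1.83 ± 0.11 with siRNA 2, a fold of 3.55. With the GC correction the siRNA 2 value was 2.06.

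**Figure D4:**
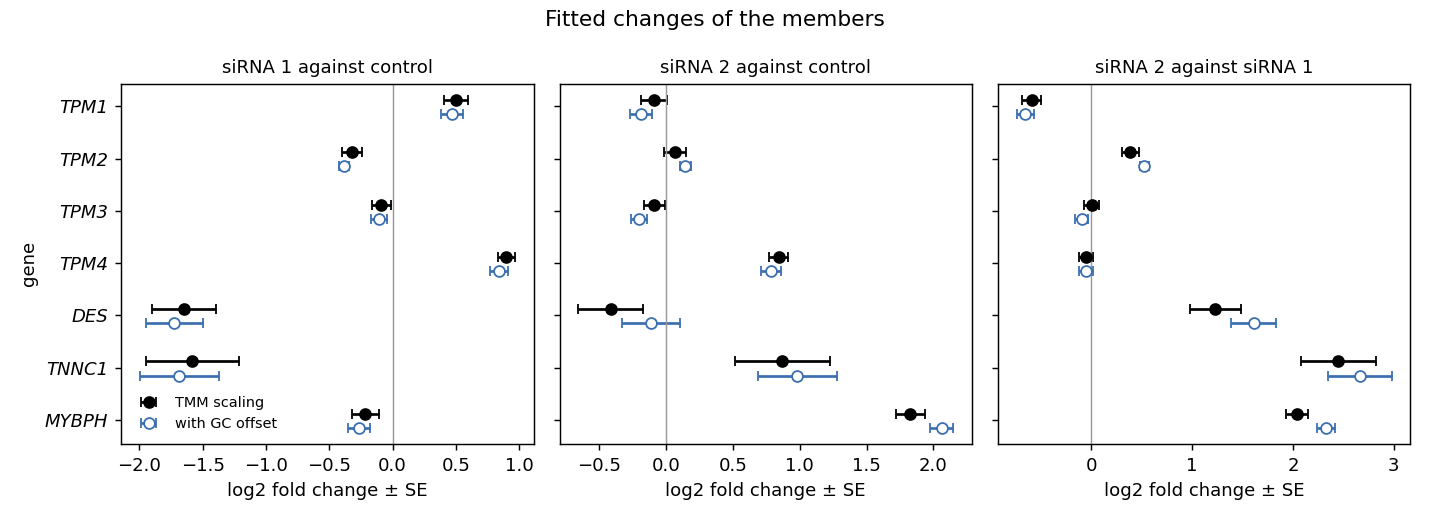
Log2 fold change ± SE of each of the 7 genes (x axis, genes down the page) for siRNA 1 against control, siRNA 2 against control and siRNA 2 against siRNA 1, with TMM scaling (filled) and with the GC correction (open). TPM4 lies right of 0 with either siRNA, TNNC1 lies on opposite sides of 0, and the DES value with siRNA 2 moves from -0.41 to -0.11 with the GC correction.

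Sequence relatives of the tropomyosins were checked because reads of near-identical copies can be split between genes. Of 14 named tropomyosin pseudogenes and antisense genes, 6 were at 0 in all 9 libraries, and the highest, TPM3P9, had 248 to 421 counts. Of the 5 that passed the filter, edgeR, DESeq2 and limma-voom called 0 in the comparisons of each siRNA with control and of the siRNAs with each other, and 0 had an unadjusted p under 0.05. The sources used here do not say how multiply mapped reads were counted, so reads shared between TPM3 or TPM4 and these copies may sit with either.

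Nonmuscle actomyosin genes, which act on the same filaments as tropomyosin, moved in both directions. With siRNA 1, 1 of 25 rose and 5 fell, against 3.72% of all genes tested called higher and 3.36% called lower, with a median log2 fold change of -0.13 against -0.02 over all genes tested. Among those that fell, MYL12A, a myosin regulatory light chain, averaged 150 ± 1.19 CPM with siRNA 1 and 197 ± 1.50 CPM in control, a log2 fold change of -0.39 ± 0.07 (edgeR adjusted p = 0.00974). CNN3, an actin-binding calponin, fell by 0.40 (edgeR adjusted p = 0.0103), and TAGLN2, a transgelin, rose by 0.26 (edgeR adjusted p = 0.0403). The TAGLN2 rise was called in 7 of 19 alternatives and lost with the GC correction (edgeR adjusted p = 0.0884). With siRNA 2 TAGLN2 fell by 0.23 (edgeR adjusted p = 0.0377). Leaving out any 1 control library left 0 edgeR calls in this list with siRNA 1, and with the GC correction 10 of its genes fell.

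With siRNA 2, 1 of the 25 actomyosin genes rose and 5 fell, against 6.15% of all genes called higher and 7.61% lower. The median was 0.06, against -0.01 over all genes. PDLIM5, a PDZ and LIM domain protein of actin bundles, averaged 263 ± 27.0 CPM with siRNA 2 and 150 ± 1.60 CPM in control, a log2 fold change of 0.81 ± 0.14 (edgeR adjusted p = 0.00623). Its relative PDLIM7 fell by 0.71 (edgeR adjusted p = 0.00561), and the myosin essential light chain gene MYL6B fell by 0.64 (edgeR adjusted p = 0.00418). With the GC correction the split was 4 higher and 4 lower, and the PDLIM7 value was -0.39.

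Of 22 tested genes for actin filament ends and turnover, 1 was called higher and 2 lower with siRNA 1, where 7.08% of all genes were called in either direction. With siRNA 2, 2 were higher and 1 lower, where 13.8% of all genes were called. CAPZA1, a subunit of the barbed-end capping protein, averaged 121 ± 19.6 CPM with siRNA 1 and 227 ± 7.70 CPM in control, a log2 fold change of -0.91 ± 0.11 (edgeR adjusted p = 0.00183). The actin severing gene CFL2 fell by 0.73 (edgeR adjusted p = 0.0169) and the formin gene DIAPH1 rose by 0.25 (edgeR adjusted p = 0.0486) with siRNA 1. With siRNA 2, the formin gene DIAPH2 rose by 0.59 (edgeR adjusted p = 0.0191), the actin monomer binding gene PFN2 rose by 0.32 (edgeR adjusted p = 0.0162) and the actin sequestering gene TMSB4X fell by 0.69 (edgeR adjusted p = 0.0189). With the GC correction the PFN2 value was 0.17. The medians were 0.04 with siRNA 1 and 0.02 with siRNA 2. Without any 1 of the control libraries, or without siRNA 2 replicate 2 or 3, edgeR called 0 of these genes with siRNA 2.

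Of 39 other sarcomere genes, 22 passed the filter. With siRNA 1 the median was 0.02. With siRNA 2 the median was -0.05, 2 were higher and 2 lower, where 6.15% and 7.61% of all genes were, and all 4 had low counts. MYL2, the ventricular myosin regulatory light chain, had 75, 56 and 97 counts with siRNA 2 and 13, 17 and 21 in control (edgeR adjusted p = 0.00432). NEB, the thin filament protein nebulin, had 195, 228 and 287 counts with siRNA 2 and 136, 113 and 103 in control (edgeR adjusted p = 0.0190). MYBPC3, cardiac myosin binding protein C, had 14, 9 and 0 counts with siRNA 2 and 65, 37 and 40 in control (edgeR adjusted p = 0.0332). TNNI2, fast skeletal troponin I, had 0, 0 and 2 counts with siRNA 2 and 5, 20 and 9 in control (edgeR adjusted p = 0.0400), and DESeq2 gave it no adjusted p. TNNI2 was called in 4 of the 16 alternatives that gave an adjusted p, and MYBPC3 in 12 of 19.

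Smooth muscle genes gave 1 call of 8 tested with either siRNA. Of all genes tested, 7.08% were called with siRNA 1 and 13.8% with siRNA 2. The smooth muscle call was in both cases ACTA2, the smooth muscle alpha actin. It had 525, 449 and 518 counts with siRNA 1 and 395, 366 and 466 with siRNA 2, against 266, 269 and 252 in control, and no library of either siRNA overlapped control. Its log2 fold change was 0.82 ± 0.14 with siRNA 1 (edgeR adjusted p = 0.00746) and 0.58 ± 0.14 with siRNA 2 (edgeR adjusted p = 0.0208). The call with siRNA 2 was lost without any 1 control library or without siRNA 2 replicate 3, with edgeR adjusted p of 0.0576 to 0.0937. The list medians were 0.17 with siRNA 1 and -0.17 with siRNA 2.

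Among 9 tested genes of nonkeratin intermediate filaments and desmin partners, NES moved in opposite directions. NES encodes nestin, a filament protein of progenitor cells and muscle precursors. It stood at 36.3, 30.9 and 30.3 CPM with siRNA 1 and 87.4, 87.8 and 87.9 CPM with siRNA 2, against 67.6, 66.0 and 64.4 CPM in control. The groups did not overlap. NES fell by 1.02 on the log2 scale with siRNA 1 (edgeR adjusted p = 0.000248) and rose by 0.41 with siRNA 2 (edgeR adjusted p = 0.00934). It was the only gene of the list called with siRNA 1, where 7.08% of all genes tested were called. With siRNA 2, 2 genes of the list were higher and 1 lower, where 6.15% and 7.61% of all genes were. The NES rise with siRNA 2 was lost without control replicate 2 or 3 (edgeR adjusted p = 0.0518 and 0.0573). The desmosome linker gene DSP rose by 0.31 (edgeR adjusted p = 0.0477) and the cytolinker gene PLEC fell by 0.43 (edgeR adjusted p = 0.0162) with siRNA 2. DSP was called in 10 of 19 alternatives and in 2 of the 9 that left out 1 library. With the GC correction the PLEC value was 0.01 (edgeR adjusted p = 0.928). The list medians were -0.06 and 0.23 with siRNA 1 and siRNA 2.

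Serum response factor drives many actin and muscle genes through the CArG box, and 16 genes of SRF, its cofactors and its targets were all tested. The median log2 fold change was -0.03 with siRNA 1 and -0.17 with siRNA 2, and 2 genes fell with each, where 3.36% of all genes were called lower with siRNA 1 and 7.61% with siRNA 2. ELK3, a cofactor, averaged 134 ± 19.0 CPM with siRNA 1 and 207 ± 3.22 CPM in control, a log2 fold change of -0.63 ± 0.10 (edgeR adjusted p = 0.00609). VCL, the focal adhesion gene vinculin, fell by 0.31 with siRNA 1 (edgeR adjusted p = 0.0140). With siRNA 2 the target gene JUNB averaged 72.3 ± 13.8 CPM, against 127 ± 5.89 CPM in control, a log2 fold change of -0.82 ± 0.12 (edgeR adjusted p = 0.00272) that was -0.47 with the GC correction. SRF itself fell by 0.34 with siRNA 2 (edgeR adjusted p = 0.0316), a change that was -0.11 with the GC correction (edgeR adjusted p = 0.256).

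**Figure D5:**
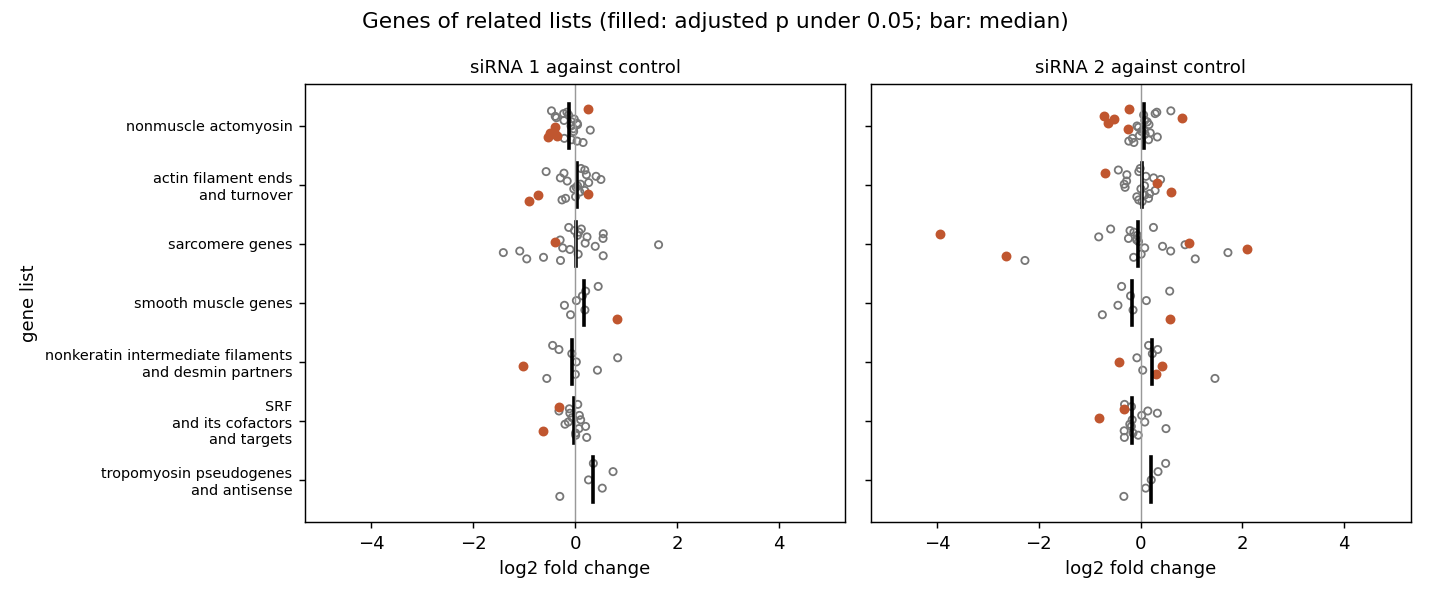
Log2 fold change (x axis) of each tested gene in the related lists (y axis) for siRNA 1 against control and siRNA 2 against control, filled where the adjusted p was under 0.05, with a bar at the list median. The list medians lie between -0.17 and 0.36, and ACTA2 is the filled point right of 0 among the smooth muscle genes in both panels.

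Of the list genes picked by the rule for naming, 4 of 11 remained called with siRNA 1 when any single library was left out (CAPZA1, NES, ACTA2 and ELK3). With siRNA 2 this held for 5 of 16 (PDLIM5, PDLIM7, MYL6B, MYL2 and JUNB). Over 14 alternatives the number of actomyosin genes called ranged from 0 to 11 with siRNA 1 and 3 to 13 with siRNA 2, and that of filament end and turnover genes from 1 to 9 and 0 to 11. The SRF list ranged from 1 to 5 with siRNA 1 and 1 to 8 with siRNA 2, and the sarcomere list from 1 to 5 with siRNA 2. The highest adjusted p over all alternatives was 0.177 for a gene named with siRNA 1 and 0.928 for one named with siRNA 2.

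The genes whose profile over the 9 libraries was nearest to each tropomyosin or muscle-type gene were found among the 12281 genes whose mean log2 CPM was 2 or more. Likeness was the root mean square difference in log2 CPM relative to the control mean. For TPM4 the nearest were ZW10 at 0.08, ACAT1 at 0.12 and H2BC5 at 0.15. NOCT, PCYOX1L and NUDT1 were nearest to TPM1, at 0.08 to 0.09, and PRSS30P and ZNF385A were among the nearest to TPM2, both at 0.05. PGRMC1, RTN3 and RAD23B were nearest to TPM3, at 0.03 to 0.04. The distances were larger for the muscle-type genes. This measure is absolute, so it can widen with the size of a shift and with the spread between libraries. DES, TNNC1 and MYBPH were chosen for their shifts, so the distances do not show whether their profiles are more particular. SSC4D, TGM2 and ARFRP1 lay 0.30 to 0.44 from DES, PIK3R3, NES and RPE65 lay 0.59 to 0.64 from TNNC1, and ZSCAN31, LINC02331 and IGFBP3 lay 0.24 to 0.29 from MYBPH. None of the 7 genes was among the 3 nearest of another.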

How the data were processed

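Gene-level read counts from 9 RNA-seq libraries were analysed, and groups were taken from the titles and treatments. The deposited values are raw counts of reads for each Ensembl gene, made by the authors on hg19 per the submitters' processing notes. The sources used here do not name the aligner, counting tool, annotation or strand setting, so reads of overlapping genes on opposite strands cannot be told apart. Symbols matched 61757 of 61806 identifiers. Lengths, GC content and overlaps came from GENCODE on a newer build, and promoters from RefSeq.

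Counts were tested in edgeR 4.0.16 (R 4.3.3) by the quasi-likelihood test with TMM factors, filterByExpr (minimum count 10, minimum total 15), all 9 libraries in 1 fit and no replicate block. P-values (two-sided) were adjusted by Benjamini-Hochberg over 20868 genes and called under 0.05. CPM used TMM-scaled library sizes. Alternatives used DESeq2 1.42.0, limma 3.58.1, other scalings and filters, a replicate block, a GC offset per library (spline with 6 degrees of freedom), only the 2 groups compared, and each library left out. Where a group kept 2 libraries, its spread was pooled with the others. The fits were tested on simulated data.

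The genes and lists were chosen with earlier results of these data known. Named list genes were the 2 called genes per direction with the lowest adjusted p in each list and comparison with control, and like genes were the 3 nearest per member. Some genes that these rules picked are not reported here. Intervals from counting were not used, since reads carried no molecular identifiers and the spread between libraries gives the errors.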

Additional observations from a re-analysis of the deposited data

How the results depend on the processing

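Counts of called genes moved with the analysis, and so did some values of the 7 genes. Over the alternatives DES with siRNA 2 ran from -0.47 to -0.11 and TNNC1 with siRNA 1 from -2.26 to -1.24. TPM4 with siRNA 1 ran from 0.84 to 0.97. With siRNA 1 against control, 1478 genes were called as reported, 969 with no filter on low counts, 2943 by DESeq2, 3852 with the GC offset, 3460 with the replicate block and GC offset together, and 439 to 2538 with 1 library left out. Of the 7 genes, 5 were called as reported, 3 with no filter, 3 with only the compared groups in the fit, and 2 to 5 with 1 library left out. TPM4, DES, TNNC1 and MYBPH were chosen on these comparisons. The tallies of the 7 genes, here and below, are therefore no test of them. With siRNA 2 against control, 2872 genes were called as reported, 4664 with only the compared groups, and 1080 to 5289 with 1 library left out, and 2 of the 7 genes became 5 with the GC offset, 4 with the replicate block and GC offset together and 4 with only the compared groups. For siRNA 2 against siRNA 1, 4681 genes became 2325 with only the compared groups and 2130 to 5843 with 1 library left out. For the average of both siRNAs, 1538 genes became 2720 by DESeq2, 3502 with the GC offset, 3108 with the replicate block and GC offset together and 314 to 3652 with 1 library left out, and 3 of the 7 genes became 2 to 5 with 1 library left out. Deviations of same-numbered libraries had correlations of -0.045 to 0.096. Differently numbered libraries were not compared, so these values cannot decide whether the numbers pair the libraries. The replicate block alone gave 1582, 3311, 5150 and 1559 calls in these comparisons, with 5, 2, 5 and 3 of the 7 genes.

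TPM3 for siRNA 2 against siRNA 1, 0.00 as reported, was -0.10 with the GC offset, -0.10 with the replicate block and GC offset together, -0.08 without siRNA 1 replicate 1, -0.01 without siRNA 2 replicate 1 and -0.01 without siRNA 2 replicate 3, and was never called; over single libraries left out it ran from -0.0816 to 0.0491. PLEC with siRNA 2 was 0.0110 with the GC offset and 0.00798 with the replicate block and GC offset together. The cause of these shifts was not tested. TPM1 kept its call and direction with siRNA 1 in 18 of 19 alternatives, and TPM1 and TPM2 kept theirs for siRNA 2 against siRNA 1 in 19 of 19. Alternatives for the named list genes were chosen after seeing the data. Depth limits EXOSC10-AS1, TNNI2, MYBPC3 and MYL2, which had under 100 counts in every library.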
